A study of Mus musculus with 6 samples.

Results

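Among 8040 newly assembled long non-coding RNAs (lncRNAs) of the mouse cortex, 125 transcripts (1.55%, Wilson 95% confidence interval 1.31 to 1.85) carried a long perfect repeat of A and G or of C and U. A transcript was chosen when its RNA sequence held at least 20 nt of strictly alternating A and G, or of C and U, in either phase, and held no alternating tract of 30 nt or more of G and U or of C and A. The choice used the sequence alone and no expression value. Before the records with a long GU or CA tract were removed, 155 transcripts (1.93%) had an AG or CU tract, and 30 of these (19.4%, 13.9 to 26.3) were taken out by that condition. The 125 members fell into 55 with an AG tract and 70 with a CU tract, and 0 of 125 had both kinds, which allows a share of up to 2.98% by the Wilson interval.

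The transcripts came from C57BL/6 wild-type mice in which subarachnoid haemorrhage (SAH), bleeding into the space around the brain, was produced by endovascular perforation. Cortex near the bleeding was collected 24 h after SAH. Control mice, described as normal in the sample labels, underwent the operation without the perforation, and the mice of both groups were adult males. Total RNA of 3 control and 3 SAH libraries, each from 3 pooled mice, was sequenced after ribosomal RNA had been removed. The records are pooled over the 6 libraries and hold for each transcript an identifier, its sequence, a predicted secondary structure and a folding free energy. They hold no value for a library, so the depth behind a transcript is unknown, control and SAH were not compared, and cortex marker genes could not be examined. They also state no strand, so an AG tract may be a CU tract of the RNA that was made. Strands that the study lists for a few new lncRNAs, among them the AG member TCONS_00032471, were not used here. The study places that transcript among its most down-regulated new lncRNAs after SAH, which was not examined here. The words "start" and "end" mean the first and last base as deposited.

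LncRNAs are long transcripts with little or no capacity to code for protein. Alternating tracts of A and G pair with tracts of C and U in the genome, so both kinds are the opposite strands of one class of microsatellite, a short unit repeated in tandem that gains and loses units easily. In RNA they are different ligands. CU-rich tracts are bound by the polypyrimidine tract binding proteins PTBP1 and PTBP2, splicing regulators of which PTBP2 is the neuronal form, whereas purine-rich GA tracts resemble exonic splicing enhancers. No binding was measured here.

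The longest tracts of each kind are printed first, because the results on length, flanks and pairing turn on them. Each sequence is written 5′ to 3′ as deposited, with the perfect tract in capitals and 30 nt of flank on each side in lower case where the transcript reaches that far. Positions count from 1 at the first base of the transcript. The 5 longest AG tracts were the following, where TCONS_00086713 was taken by its lower identifier from a pair of 51-nt tracts.
TCONS_00133598: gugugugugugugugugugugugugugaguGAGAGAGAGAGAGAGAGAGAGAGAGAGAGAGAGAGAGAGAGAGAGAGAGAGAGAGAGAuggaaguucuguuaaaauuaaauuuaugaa
TCONS_00226184: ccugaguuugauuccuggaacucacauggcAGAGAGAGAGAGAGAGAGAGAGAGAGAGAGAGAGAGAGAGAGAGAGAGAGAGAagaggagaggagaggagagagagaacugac
TCONS_00070768: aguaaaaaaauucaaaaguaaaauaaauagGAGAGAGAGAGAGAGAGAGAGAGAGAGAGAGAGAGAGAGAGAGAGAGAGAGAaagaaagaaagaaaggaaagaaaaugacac
TCONS_00162404: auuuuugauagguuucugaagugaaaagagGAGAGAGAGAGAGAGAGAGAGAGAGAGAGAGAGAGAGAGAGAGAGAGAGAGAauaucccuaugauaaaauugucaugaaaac
TCONS_00086713: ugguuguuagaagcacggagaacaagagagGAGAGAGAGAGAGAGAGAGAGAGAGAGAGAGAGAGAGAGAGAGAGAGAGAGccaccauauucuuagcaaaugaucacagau

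The longest of these, in TCONS_00133598, ran for 58 nt from position 230 to 287 of a transcript of 1438 nt. A stretch of alternating G and U, too short to be removed by the selection, lay close before it, with the bases agu in between. The tract of TCONS_00226184 was 53 nt long, and those of TCONS_00070768 and TCONS_00162404 were 52 nt each. In TCONS_00070768 the purines went on past the perfect tract as AAAG units, which made an unbroken purine run of 78 nt. TCONS_00086713 held 51 nt of AG in the shortest member, of 463 nt, so that the tract made up 11% of the transcript. The other tract of 51 nt, in TCONS_00138106, is not shown.

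Among the CU members the longest tracts were longer. TCONS_00081643 carried the same tract and flanks as TCONS_00075822 and is therefore not repeated.
TCONS_00251508: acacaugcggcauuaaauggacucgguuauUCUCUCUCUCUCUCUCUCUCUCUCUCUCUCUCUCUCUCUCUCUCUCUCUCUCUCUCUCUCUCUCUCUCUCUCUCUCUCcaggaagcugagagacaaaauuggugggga
TCONS_00075822: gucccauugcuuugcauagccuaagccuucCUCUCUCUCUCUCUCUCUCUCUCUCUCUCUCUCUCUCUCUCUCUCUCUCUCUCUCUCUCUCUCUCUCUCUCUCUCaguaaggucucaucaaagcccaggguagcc
TCONS_00077380: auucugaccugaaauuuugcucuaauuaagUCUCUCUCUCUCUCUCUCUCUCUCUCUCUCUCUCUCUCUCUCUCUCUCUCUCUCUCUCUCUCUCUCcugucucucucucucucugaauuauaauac
TCONS_00005729: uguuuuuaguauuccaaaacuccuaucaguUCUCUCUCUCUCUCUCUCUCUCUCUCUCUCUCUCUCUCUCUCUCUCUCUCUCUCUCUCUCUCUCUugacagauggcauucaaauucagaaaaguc

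TCONS_00251508 held 78 nt of CU at positions 165 to 242 of 1041 nt. The shared tract of TCONS_00075822 and TCONS_00081643 was 75 nt long, that of TCONS_00077380 was 66 nt, and that of TCONS_00005729 was 65 nt. TCONS_00034679 and TCONS_00129840 also had a tract of 65 nt and are not shown, because ties were taken by identifier. In TCONS_00077380 a further CU stretch followed after a short break, which left the perfect tract shorter than the whole repeat.

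The 125 members held 131 tracts, 57 of AG and 74 of CU, and 6 members had 2 tracts. AG tracts had a median length of 32 nt (quartiles 24 and 42, range 20 to 58), and CU tracts a median of 43 nt (31.2 and 50, range 20 to 78). The share of tracts above 30, 40, 50 and 60 nt was each time higher for CU. A length of 40 nt or more was reached by 19 AG tracts (33.3%, Wilson 95% interval 22.5 to 46.3) and 45 CU tracts (60.8%, 49.4 to 71.1), and 60 nt or more by 0 AG and 9 CU tracts. Just inside the threshold, 4 AG tracts measured 20 nt and 1 measured 21 nt, and 3 and 1 CU tracts did so. Just outside it, over all records, 3 AG tracts measured 18 nt and 3 measured 19 nt, against 9 and 3 CU tracts. Of the 131 tracts, 118 were different by their length and the 10 nt on each side, and 13 occurred in a pair of members.

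**Figure D1:**
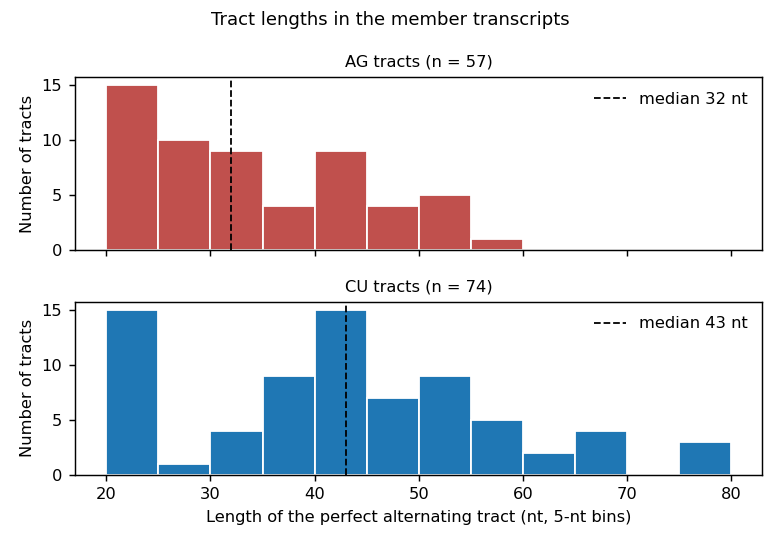
Histograms of the length of the perfect alternating tract in nt (horizontal axis, bins of 5 nt) for the 57 AG tracts (upper panel) and the 74 CU tracts (lower panel), with the number of tracts on the vertical axis and the median as a dashed line. The AG tracts reached 58 nt around a median of 32, while the CU tracts reached 78 nt around a median of 43.

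The other dinucleotide repeats set the scale of these numbers. Over all 8040 records, tracts of at least 20 nt were found in 375 records for CA, 170 for GU, 89 for CU, 66 for AG, 25 for AU and 1 for CG. CA repeats, the commonest of these in the records, reached 62 nt and GU repeats 52 nt, so the longest perfect alternating tract of the 4 kinds was a CU tract. The AG and CU counts are here before the removal of records with long GU or CA tracts.

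Beyond the perfect tract, the bases of the same class mostly ended within a few nucleotides. A run of purines around the AG tract was longer than the tract in 37 of 57 (64.9%), and a run of pyrimidines around the CU tract in 58 of 74 (78.4%), by a median over all tracts of 2 nt for AG and 3.5 nt for CU. The excess was 10 nt or more at 11 AG tracts (19.3%, 11.1 to 31.3) and 23 CU tracts (31.1%, 21.7 to 42.3). These runs had a median of 37 nt for AG and 51 nt for CU, and the longest reached 78 and 103 nt. In the 50 nt on each side, purines made up a mean of 56.5% of the bases beside AG tracts (SD 9.55 across tracts), against 50.3% (SD 3.26) over the rest of those transcripts. Beside CU tracts pyrimidines made up 57.5% (SD 12.4), against 50.2% (SD 2.82). The ranges overlapped, as the flanks held down to 38.5% and 30.2% of the tract's own class.

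Other microsatellites lay beside the tracts. A simple repeat, here a unit of 1 to 4 nt repeated at least 3 times over at least 12 nt, lay within 50 nt of 23 of 57 AG tracts (40.4%, 28.6 to 53.3) and 27 of 74 CU tracts (36.5%, 26.4 to 47.9). Over members this was 45 of 125 (36.0%, 28.1 to 44.7). As background, 4905 of 98504 windows of 100 nt in the other records (4.98%) held such a repeat. Beside AG tracts the commonest units were AC, at 10 tracts, and GU, at 7, and beside CU tracts AC at 6, CCCU at 5 and GU at 4. The same dinucleotide began again within 50 nt at 6 AG and 13 CU tracts. The longest member, TCONS_00086608 of 6810 nt, shows several at once, with GU before, a perfect AG tract of 23 nt at positions 676 to 698, 1 further G, the perfect tract of 41 nt, and CUGU units after it.
TCONS_00086608: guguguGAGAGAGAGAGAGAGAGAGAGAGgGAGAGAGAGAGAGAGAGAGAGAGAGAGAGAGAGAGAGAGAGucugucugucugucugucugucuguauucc
TCONS_00178535: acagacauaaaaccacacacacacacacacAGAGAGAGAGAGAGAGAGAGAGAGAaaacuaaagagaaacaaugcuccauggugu
TCONS_00075206: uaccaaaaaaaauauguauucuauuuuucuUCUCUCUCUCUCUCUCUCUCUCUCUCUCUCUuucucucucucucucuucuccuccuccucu
TCONS_00200553: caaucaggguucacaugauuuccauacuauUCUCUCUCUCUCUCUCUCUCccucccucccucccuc
TCONS_00178535, chosen after its values were seen, passes from CA to AG without a break. TCONS_00075206 adds broken CU and CCU units to its perfect 31 nt, and the CU tract of TCONS_00200553, of 20 nt, is followed by CCCU units up to the last base of the transcript.

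The AG tracts lay near the start of their transcripts more often than along the rest of them. Of 57 AG tracts, 30 (52.6%, 39.9 to 65.0) had their centre in the first 20% of the sequence, and 4 to 10 lay in each of the later parts of the same size. The CU tracts were spread more evenly, with 17 of 74 (23%, 14.9 to 33.8) in the first 20% and 22 (29.7%) in the last 20%. The median relative position, where 0 is the first and 1 the last base, was 0.18 for AG (quartiles 0.06 and 0.60) and 0.51 for CU (0.28 and 0.84). The intervals of the AG and CU shares in the first 20% did not overlap, and no test of their difference was run, since transcripts are not replicates and some share sequence.

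**Figure D2:**
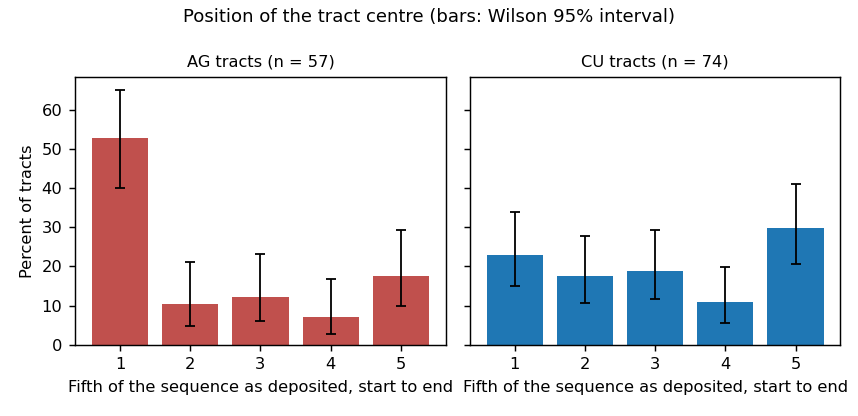
Percent of tracts (vertical axis) whose centre lies in each of 5 equal parts of the transcript, from start to end as deposited (horizontal axis), for the 57 AG and the 74 CU tracts, with Wilson 95% intervals as error bars. The first part holds 52.6% of AG tracts and 23% of CU tracts.

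In nucleotides, 16 AG tracts (28.1%) began within 50 nt of the first base and 25 (43.9%, 31.8 to 56.7) within 200 nt, against 7 (9.46%) and 16 (21.6%, 13.8 to 32.3) CU tracts. At the other end, 8 AG tracts (14.0%) and 17 CU tracts (23%) ended within 200 nt of the last base. The transcript itself began inside the tract in 6 AG and 4 CU cases and ended inside it in 2 and 1. When the records with a long GU or CA tract were included, 34 of 68 AG tracts (50%, 38.4 to 61.6) and 20 of 93 CU tracts (21.5%, 14.4 to 30.9) lay in the first 20%. GU tracts, at 26.1% of 176 (20.2 to 33.1), and CA tracts, at 21.6% of 393 (17.8 to 26.0), were close to CU in this. On the opposite strand an AG tract at the start is a CU tract at the end, and the last 20% held 29.7% of the members' CU tracts (20.5 to 40.9). What sets the position was not tested.

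In the deposited structures, which are predictions of the fold of lowest energy, AG tracts were mostly paired and CU tracts were paired less. A median of 75% of the bases of an AG tract was paired (quartiles 60 and 81.2, range 6.06 to 100), against 50.5% of a CU tract (19.5 and 66.4, range 0 to 86.7). Outside the tracts the members were alike, with means of 59.3% (SD 2.75, n = 55) and 58.5% (SD 2.88, n = 70) of bases paired. Within its own transcript the tract was more paired than the rest in 39 of 55 AG members (70.9%, 57.9 to 81.2), by a median of 13.6 percentage points over all 55. In CU members the tract was less paired than the rest in 46 of 70 (65.7%, 54.0 to 75.8), with a median difference of -7.49 points.

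**Figure D3:**
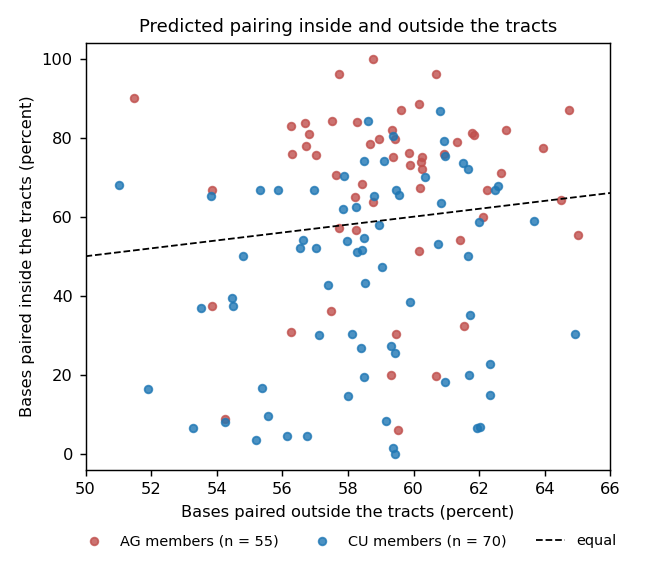
Percent of bases paired inside the tracts (vertical axis) against the percent paired in the rest of the same transcript (horizontal axis, from 50 to 66) for the 55 AG and 70 CU members, 1 point each; the dashed line marks equal values. Most AG members lie above the line and most CU members below it, and the values inside the tracts spread from 0 to 100%.

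The kinds differed in their bases as well. Adenine, less often paired than guanine in the rest of the AG members (45.8% of 26297), was paired at 588 of 955 positions inside the tracts (61.6%, 58.4 to 64.6), whereas guanine was paired at 69% inside and 75.1% outside. In CU tracts cytosine was paired at 673 of 1575 positions (42.7%) and at 57.9% outside, and uracil at 43.6% and 56.4%. The pairs of AG tracts were 47.2% A-U, 37.9% G-C and 15.0% G-U (13.1 to 17.1), the last being the weaker wobble pair. In the rest of those transcripts 11.6% of pairs were G-U. Pairs of CU tracts were 49.3% G-C, 41.7% A-U and 9.01% G-U. Bases of 1 tract are not independent of each other, so these intervals cover counting error only.

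Partners were usually far away. The median over tracts of the median distance to the partner was 448 nt for AG and 277 nt for CU, and 67.1% of the AG partners lay downstream and 56.3% of the CU partners upstream. The sequence available on each side differed too. AG tracts had a median of 360 nt before and 981 nt after them, and CU tracts 715 and 632 nt. How far the direction follows the position of the tract was not tested. Another simple repeat held 95 of 1247 partners (7.62%) for AG and 32 of 1365 (2.34%) for CU. The share of all bases that lie in simple repeats was not computed, so these have no background beside them. The longest unbroken helix of a tract had a median of 7 base pairs for AG and 5 for CU, and 14 tracts, 9 of AG and 5 of CU, had one of 10 base pairs or more. Long open stretches were seen mainly in CU tracts, since 20 or more consecutive bases were unpaired in 28 of 74 (37.8%, 27.6 to 49.2) and in 6 of 57 AG tracts (10.5%, 4.91 to 21.1). CU tracts were also longer, with a median of 43 nt against 32 nt, and a longer tract has more room for such a stretch. The shares were not matched for tract length.

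Both ends of the range of pairing were held by short tracts. TCONS_00140225 had the highest share, 100% of its 25-nt AG tract at positions 824 to 848, and TCONS_00200553, printed above, the lowest, 0% of its 20-nt CU tract at positions 1163 to 1182 of 1198. In TCONS_00140225 the whole tract formed 1 helix of 25 base pairs with a CUUU repeat that starts at position 15, so that its G bases pair in turn with C and with U. Both strands of that helix are shown here, followed by the helices of 24 base pairs in TCONS_00178535 and of 19 base pairs in TCONS_00075822. The last 2 transcripts of this set were chosen by their helix length after the values were seen.
TCONS_00140225: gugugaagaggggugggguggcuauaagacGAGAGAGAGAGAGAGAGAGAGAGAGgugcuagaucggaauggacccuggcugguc
TCONS_00140225, tract strand: GAGAGAGAGAGAGAGAGAGAGAGAG
TCONS_00140225, partner strand: CUUUCUUUCUUUCUUUCUUUCUUUC
TCONS_00178535, tract strand: GAGAGAGAGAGAGAGAGAGAGAGA
TCONS_00178535, partner strand: UCUUUCUCUCUUUCUUUUUUUUUU
TCONS_00075822, tract strand: UCUCUCUCUCUCUCUCUCU
TCONS_00075822, partner strand: AGAGAGAGAGAGAGAGAGA

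The partner in TCONS_00178535 starts at position 340 and is a mixed pyrimidine and U stretch, while TCONS_00075822 joins its CU tract to an AG stretch that starts at position 221 and is too short to count as a tract of its own. TCONS_00198637, also chosen afterwards, paired 18 bases of its 37-nt AG tract with a C followed by a run of U, so that each G of the helix but the one at the C was in a wobble pair.

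The longest tracts of each kind were paired to very different degrees. The AG tracts of TCONS_00133598, TCONS_00226184, TCONS_00162404 and TCONS_00070768 were paired at 63.8%, 64.2%, 73.1% and 78.8% of their bases, and that of the short TCONS_00086713 at 19.6%, with 36 consecutive bases unpaired. TCONS_00138106, whose AG tract is of the same length, was paired at 78.4%. Of the CU tracts, the longest, in TCONS_00251508, was paired at 66.7%, whereas TCONS_00077380 was paired at 16.7% and TCONS_00005729 at 1.54%, with 64 of its 65 bases in 1 unpaired stretch. The other tracts of 65 nt were paired at 75.4% in TCONS_00034679 and 38.5% in TCONS_00129840. Both levels were thus present among the longest CU tracts.

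The 13 tracts found in a pair of members, 4 AG and 9 CU, allow the same letters to be compared in different transcripts. The median difference within a pair was 15.4 percentage points, 4 pairs were more than 20 points apart, and 2 pairs had equal values. The largest gap was that of the 75-nt CU tract, which was paired at 66.7% in TCONS_00075822, where it starts at position 764, and at 6.67% in TCONS_00081643, where it starts at position 138 and 69 consecutive bases were unpaired. The 50-nt CU tract of TCONS_00169408 and TCONS_00171423 was paired at 70.0% and 20%. At the other extreme, the 54-nt CU tract of TCONS_00117284 and TCONS_00120126 was paired at 74.1% in both. Apart from the pair with 75 nt, these were chosen after their values were seen.

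**Figure D4:**
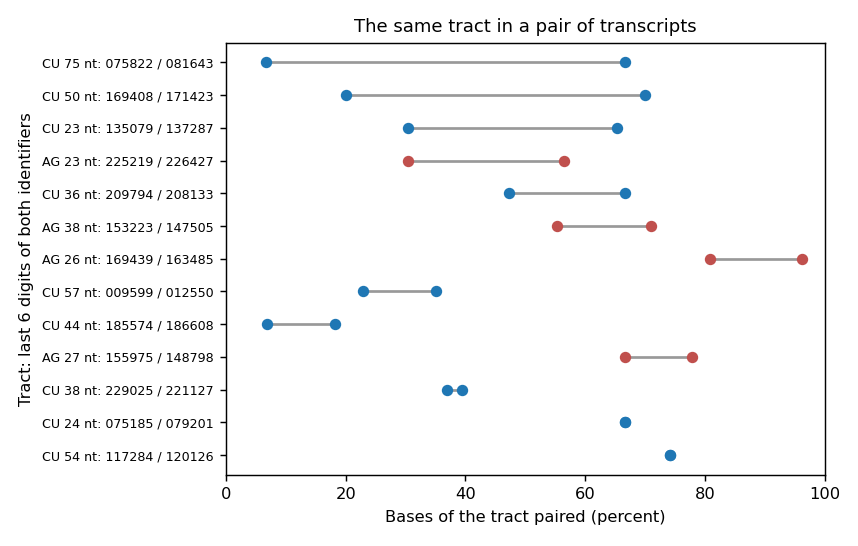
Percent of bases paired (horizontal axis) of the same tract in a pair of members, with 1 row for each of the 13 tracts (red AG, blue CU), labelled with the tract length in nt and the last 6 digits of both identifiers; a grey line joins the pair. The gap runs from 0 to 60 percentage points, with a median of 15.4.

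One pair of members shared long stretches as complements of each other, with interruptions. TCONS_00222353, of 1113 nt, and the complement of TCONS_00226184, of 1303 nt, shared 3 identical blocks of 257, 138 and 103 nt, 498 nt in all, across the repeat. The blocks start at positions 1, 259 and 397 of the former and at 794, 1052 and 1201 of that complement. The sequences between the blocks therefore differ, and whether both come from 1 locus was not tested. The CU tract of the former was 47 nt long and the AG tract of the latter 53 nt, a difference of 6 nt. The whole pyrimidine run around the former was 67 nt long and the whole purine run around the latter 78 nt. The CU tract was paired at 70.2% and the AG tract at 64.2%. The tract of TCONS_00222353 is shown for comparison with that of TCONS_00226184 above.
TCONS_00222353: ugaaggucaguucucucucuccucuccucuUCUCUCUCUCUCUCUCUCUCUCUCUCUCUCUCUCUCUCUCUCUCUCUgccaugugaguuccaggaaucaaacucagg

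Folding free energy over the whole transcript was close to that of the other records. Per 100 nt its mean was -28.3 kcal/mol in the members (SD 4.21, n = 125) and -28.2 kcal/mol in the others (SD 4.38, n = 7915). In a linear fit over all 8040 records with GC content and log2 length as covariates, the members were 0.29 kcal/mol per 100 nt less stable (SE 0.16, 95% interval -0.02 to 0.61), an interval that includes 0. The sign of this difference depended on the covariates, and it was -0.12 without any of them (-0.90 to 0.65). Fitted as separate terms, an alternative added after seeing the data, the difference was 0.10 for AG members (-0.37 to 0.58) and 0.44 for CU members (0.02 to 0.87). Records share sequence, so these intervals are descriptive. The lowest energy among members was that of TCONS_00186608, at -38.0 per 100 nt, and the highest that of TCONS_00075206, at -19.2. Their GC contents were 48.9% and 31.3%, and the CU tract was largely unpaired in both, at 6.82% and 9.68%.

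**Figure D5:**
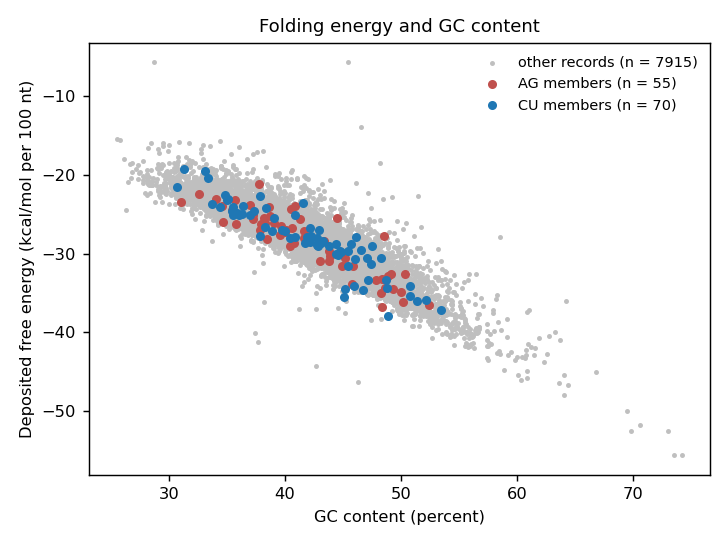
Deposited free energy in kcal/mol per 100 nt (vertical axis) against GC content in percent (horizontal axis) for 7915 other records (grey), 55 AG members (red) and 70 CU members (blue). The members lie within the band of the other records, between -38.0 and -19.2 kcal/mol per 100 nt.

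Members were longer than the other records. Their median length was 1415 nt (quartiles 1041 and 1825) against 1113 nt (846 and 1486). Among the shortest records, up to 849 nt, 9 of 2016 (0.446%, 0.235 to 0.846) were members, against 52 of 2008 (2.59%, 1.98 to 3.38) of the longest, above 1489 nt, where both limits are quartiles of all lengths. A longer sequence has more places for a tract. Per 1000000 nt of sequence, the members' tracts numbered 6.78 among the shortest records, 15.7 and 13.2 in the quartiles between, and 12.5 among the longest, so per nt the shortest records stood lowest. No test was run on this. The tracts took up a median of 2.83% of a member. GC content was alike, with means of 41.9% (SD 5.33) and 41.8% (SD 5.7).

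Reading frames that begin with AUG and close with a stop codon were short, as the selection of these transcripts as non-coding requires. On the sequence as deposited, 0 of 125 members and 0 of 7915 other records had a frame of 100 codons or more. On the complement 13 members (10.4%, 6.18 to 17.0) and 587 others (7.42%, 6.86 to 8.01) had one, so the intervals overlap. At 80 codons they did not, with 38 members (30.4%, 23 to 38.9) and 1541 others (19.5%, 18.6 to 20.4) on the complement. As deposited, 21 members (16.8%) and 810 others (10.2%) had a frame of 80 codons. Members were longer, as given above, a longer sequence has more room for a frame, and these shares were not matched for length. The longest frame as deposited had a median of 58 codons in members and 52 in the others, beside the difference in length given above. It overlapped a tract, wholly or in part, in 9 of 55 AG and 15 of 70 CU members. Where a frame runs on through an alternating tract, the tract would read as a repeated pair of amino acids.

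Sequence motifs outside the members' tracts were counted with 10 nt masked on each side of each tract, on the strand as deposited. The other records were counted without a mask. They include the 30 records with an AG or CU tract that the GU or CA condition removed. UCUU, a core motif of the polypyrimidine tract binding proteins, occurred 7.20 times per 1000 nt in CU members, 6.68 in AG members and 6.86 in the other records. CUCUCU occurred 0.614 times per 1000 nt in CU members, 0.775 in AG members and 0.621 in the others. In CU members this value rested on the mask, since it was 1.04 with only the tract masked and 0.373 with 50 nt masked on each side. GAAGAA, a purine-rich splicing enhancer motif, occurred 0.729 times in AG members, 0.556 in CU members and 0.588 in the others. GAGAGA occurred 0.991 times per 1000 nt in AG members, 0.564 in CU members and 0.61 in the others. With 50 nt masked on each side it occurred 0.811 times in AG members. At least 1 copy was held by 98.8% of the other records for the first of these motifs, by 43.2% for the second, by 46.8% for the third and by 43.3% for the last. Among the longer members these shares were 100% and 57.1% of CU members and 100% and 56.4% of AG members for the pyrimidine motifs. For the purine motifs, in the same order, they were 61.8% and 52.7% of AG members and 58.6% and 60% of CU members. The pyrimidine motifs can overlap each other, as can the purine motifs, and a match is a stretch of letters and not a binding site.

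Apart from the repeats, part of the members shared sequence with other records. An identical stretch of 50 bases was shared by 86 of 125 members (68.8%, 60.2 to 76.3), against 3049 of 7915 other records (38.5%, 37.5 to 39.6). Once simple repeats were masked, the members' count was 51 (40.8%, 32.6 to 49.6) and that of the others 2945 (37.2%, 36.1 to 38.3), so the intervals overlap. With repeats masked, 31 members shared such a stretch with another member, and 36 of the 125 shared one with exactly 1 other record and 3 with 10 or more. Members that share sequence may come from 1 locus or hold copies of a stretch found in several places. The positions of the transcripts were not analysed here, so these cannot be told apart.

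Sequence around known gene starts was compared with the RefSeq promoter windows of assembly GRCm38.p6, which span 250 bases before to 50 after each start. At least 50 bases were shared by 4 members with 10 of 32851 windows. TCONS_00060079 matched windows of 6 genes, among them the olfactory receptor Olfr1490 and the predicted gene Gm29961. TCONS_00075822 matched Gm35634 and Gm51956. TCONS_00117730 and TCONS_00229577 both matched Gm34450 and Sec31a, which encodes a coat protein of vesicles leaving the endoplasmic reticulum. Matches to several windows mean that the shared stretch occurs in more than 1 place, so none assigns a member to a gene.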

How the data were processed

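The authors aligned paired-end reads of 6 cortex libraries, assembled transcripts and kept those over 200 nt without known annotation or coding potential. TopHat2 and mm10 are credited to the submitters' processing notes, and the folding program is not given in the sources used here. The deposited values are 1 record per transcript for the whole series (an identifier, an RNA sequence, a dot-bracket structure and an energy), not a count or another value per library. Depth is therefore unknown, and the count test planned for values per library was not run. With RNAeval of ViennaRNA 2.7.2, Turner parameters of 1999 and dangling-end setting 1, the energy of each of 125 members equalled the deposited value within 0.01 kcal/mol, so the unit is kcal/mol.

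Tracts, pairing, frames, motifs and exact shared stretches were computed in Python 3.11.15 and the linear fit in statsmodels 0.14.6. The scripts were tested on simulated data. Wilson intervals cover counting error only. The members, lists and tests were chosen with earlier results of these data known. The text names the 5 longest tracts of each kind, the longest and shortest member, the extremes of energy and of pairing, complementary members, and members that match a promoter window. Of 125 members, 108 of at most 2500 nt were folded again. Promoter and miRNA sequences are RefSeq's, of GRCm38.p6. A few tract sequences are not printed here. Alternatives changed the tract minimum, the exclusion, the grouping, the masks and the covariates.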

Additional observations from a re-analysis of the deposited data

How the results depend on the processing

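Of 71 alternative values, 59 were classed as unchanged. For medians, means and motif rates this meant a shift below the SD across single tracts or members, which is a wide limit. Shares had to stay inside the Wilson interval and counts within a fixed factor. The fit had to keep its sign and whether its interval included 0. The count of 59 is therefore no measure of precision, and it includes the CUCUCU rate in CU members and the median tract length given next. With 1 member, the longest, per group sharing 50 bases, 65 members remained, of which 56.9% had an AG tract, and the median tract was 30 nt instead of 39. A tract of 50 nt or more alone links transcripts in that grouping, and with simple repeats masked, an alternative chosen after seeing the data, 108 remained. The share of members with a complement frame was 30.4% at 80 codons, against 19.5% of the other records, which were shorter and not matched for length. Shared sequence was found in 93.6% of members at 30 bases, 39.2% at 100 bases and 40.8% with repeats masked, and promoter windows were matched by 96 members at 30 bases (21 with repeats masked) and 0 at 100. The difference in free energy of members from others reversed to -0.12 without covariates, -0.086 with GC content only and -0.81 with tract bases left out. That last alternative keeps the energy of the tract's pairs while the length shrinks. With separate terms, added after seeing the data, the interval for CU members, at 0.44, did not include 0.

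The median relative position ranged from 0.15 to 0.23 for AG and from 0.49 to 0.56 for CU tracts over the alternatives. The median percent of bases paired ranged from 71.4 to 75.7 for AG and from 44.0 to 54.5 for CU. The lowest of both were the transcripts folded again at the program's defaults. Those covered only 49 AG and 63 CU tracts, whose deposited medians were 73.1% and 51.6%. No paired analysis was possible because the records hold no value for a single library, and for the same reason leaving out each replicate was not run. The records show neither depth nor expression, and predicted structures were not compared with measured ones.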

Other observations

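Mature miRNA sequences of RefSeq occurred whole in 4 members, which were chosen after the match was seen. The miRNAs are shown with the seed, bases 2 to 8, in capitals, because the seed of the second reads as an AG-rich stretch.
mmu-miR-3470b: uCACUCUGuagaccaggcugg
mmu-miR-3473a: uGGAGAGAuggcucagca
The first, of 21 nt, was found in TCONS_00229577 as deposited and in the complement of TCONS_00075822, and the second, of 18 nt, in TCONS_00155975 as deposited and in the complement of TCONS_00013002. Neither is rare in the records, since they occurred on either strand of 36 and 19 of the 8040 transcripts. A match of this kind shows shared letters and no processing of the transcript into a miRNA.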
